A study of Rattus norvegicus with 4 samples.

Results

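In single-cell RNA from rat blood, where a UMI (unique molecular identifier) stands for 1 captured RNA molecule, nonclassical monocytes were chosen by their UMI counts as droplet barcodes with at least 1 UMI of *Csf1r* and at least 1 of *Fcgr3a*, at most 1 UMI over the classical monocyte genes *Fcnb*, *Fn1* and *Vcan*, at most 1 over the T cell genes *Cd3e*, *Cd3d* and *Cd3g*, at most 1 over the B cell genes *Cd79b* and *Ms4a1*, and hemoglobin under 40% of UMIs. The rule took 958 of 45986 kept barcodes (at least 500 UMIs, at least 200 genes, at most 20% mitochondrial UMIs). By library, 232 were in Sham, 133 in SCI, 186 in the MSC-i.t library and 407 in the MSC-i.v library. Sham is a library from the sham group, SCI one from rats with a contusion of the spinal cord by Allen's method, MSC-i.t one from injured rats given umbilical cord mesenchymal stromal cells into the spinal canal (10000000 cells/kg), and MSC-i.v one from injured rats given 30000000 cells/kg into a vein. Both were dosed 2 times, 72 hours and 7 days after the injury. Each of the 4 groups had 10 rats per the labels and gave 1 library. The time of blood sampling, the strain, age and sex, and the number of rats behind a library are not given in the labels, whose design text speaks of all 40 rats as injured, the sham group included. The name of the SCI data set carries the tag Pre, where those of the other 3 carry a tag in hours, so its blood may have been drawn at another stage.

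Nonclassical monocytes are the patrolling branch of the blood monocytes. They mature from classical monocytes under the nuclear receptor *Nr4a1* and *Klf4*, depend on the colony-stimulating factor 1 receptor *Csf1r* for survival, crawl along the endothelium with integrins and the fractalkine receptor *Cx3cr1*, and carry the activating Fc receptor *Fcgr3a*, which binds antibody-coated targets. Classical monocytes instead express granule and alarmin genes and enter injured tissue.

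Levels are CPM, the field's depth-scaled counts, from UMIs summed over the class in a library. Where 4 values follow each other without names, they run Sham, SCI, then MSC-i.t, then MSC-i.v. The 958 barcodes held 979395, 552039, 836382 and 1267300 UMIs, with medians per barcode of 3859, 3968, 4062.5 and 2788. With 1 library per group there is no replicate spread and no test. Intervals are exact 95% intervals that cover counting error only, and each ratio is one between single libraries. No barcode was a member in more than 1 library. Each pair shared 25 to 49 kept barcodes, and 0 to 3 of these were a member in one library of the pair.

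Several genes outside the rule that mark nonclassical monocytes were high in these barcodes. *Nr4a1* stood at 571 CPM in Sham, 440 in SCI, 505 for MSC-i.t and 399 for MSC-i.v, against 165, 214, 176 and 160 in classical monocytes of the same libraries (at least 3 UMIs of *Fcnb*, *Fn1* and *Vcan*, 1183 barcodes). *Klf4* stood at 770, 877, 725 and 665 CPM, against 261, 576, 301 and 293. *Spn*, which encodes the sialophorin CD43 that marks this subset in rats, reached 1500, 1650, 1345 and 1346 CPM, against 235, 580, 290 and 306. All 3 were higher in nonclassical than in classical monocytes of every library, and the gap was smallest in SCI, where the classical level was highest. *Pou2f2*, a transcription factor gene, and *Spi1*, the master regulator of myeloid cells, were at 673 to 853 and 639 to 683 CPM. The fractalkine receptor *Cx3cr1* was sparse, at 76.6 CPM in Sham, 105 in SCI, 86.1 for MSC-i.t and 81.3 for MSC-i.v. It set the classes apart little. Among barcodes with at least 2000 UMIs, each thinned at random to 2000, 13.7%, 17.6%, 14.9% and 13.4% of nonclassical ones had a *Cx3cr1* UMI. Of classical ones, 6.57%, 16.5%, 8.92% and 9.21% had 1 or more, so the classes were nearly level in SCI.

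Marker lists of other cells ranged from near 0 to high summed levels. The basophil and mast cell list summed to 0 to 2.39 CPM, that of conventional dendritic cells to 2.04 to 5.43, that of plasma cells to 5.43 to 16.3 and that of B cells to 21.7 to 37.1. The T cell list summed to 76.5 to 114 CPM and the neutrophil list to 69.3 to 174. The 9 tissue macrophage markers summed to 245 to 285 CPM, above the 91.7 to 172 of classical monocytes. Nearly all of this was *Adgre1*, which encodes the F4/80 surface protein, at 285, 284, 245 and 244 CPM. The markers *Cd163*, *Mrc1*, *Timd4*, *C1qa*, *C1qb*, *C1qc* and *Marco* had 0 UMIs in all 4 libraries, as had *Flt3*, *Clec9a* and *Xcr1* of dendritic cells and *Siglech* of plasmacytoid dendritic cells, whose list of 7 summed to 470 to 1061 CPM, most of it *Bst2*. *Ccr2* also had 0 UMIs, although it was at only 2.57 to 3.46 CPM in the classical monocytes. *Ace*, a marker of this subset in mice, had 0 UMIs in both monocyte classes. The summed level of 10 platelet genes was 657 CPM in Sham, 190 in SCI, 466 for MSC-i.t and 259 for MSC-i.v. The summed level of 10 natural killer cell genes was 239, 72.5, 520 and 178 CPM, and their part in the results below was not tested except where a value is given. The erythroid genes summed to 26987 to 40606 CPM, against 56723 to 148783 CPM in the free RNA of barcodes with 10 to 100 UMIs.

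**Figure D1:**
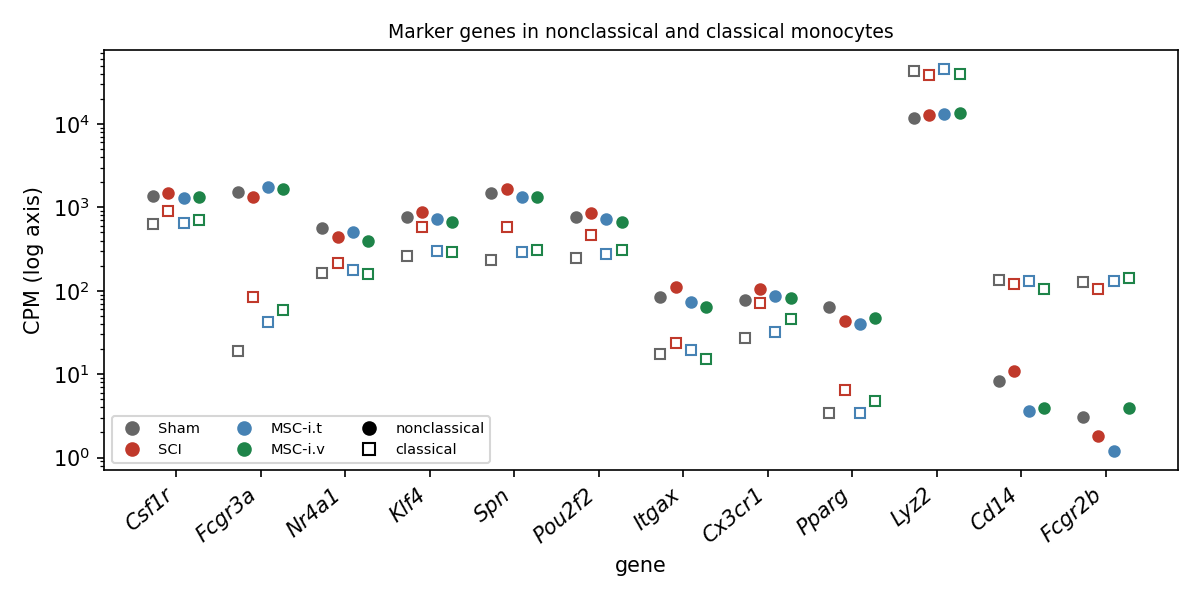
Levels of 12 marker genes in CPM on a log axis, with filled circles for nonclassical and open squares for classical monocytes and 1 colour per library. *Csf1r* and *Fcgr3a* belong to the selection rule; *Spn* reaches 1345 to 1650 CPM in the nonclassical barcodes and 235 to 580 in the classical ones, and *Lyz2*, *Cd14* and *Fcgr2b* lie the other way round.

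Beside classical monocytes, 180 of 7136 genes (2.52%) were at least 2-fold higher and 253 (3.55%) at least 2-fold lower in all 4 libraries. The rule used this contrast, so these counts describe the selected barcodes. Ranked by the smallest of the 4 ratios, the leading gene was *Pparg*, the lipid-sensing nuclear receptor, at 64.3 CPM in Sham, 43.5 in SCI, 39.5 for MSC-i.t and 47.3 for MSC-i.v, with 3.44 to 6.51 CPM in the classical class. *Pmp22* followed with 410, 388, 297 and 352 CPM against 20.5 to 61.2. The semaphorin co-receptor *Nrp1* stood at 256, 429, 197 and 214 CPM against 42.4 to 108. The integrin *Itgax*, which encodes CD11c, stood at 83.7, 112, 72.9 and 63.9 CPM against 15.1 to 23.5. Other genes among the 20 leading ones were *Cd83*, *Fpr3*, *Cadm1*, *P2ry14*, *Ebi3*, *Cmah*, *Ngfr*, *Pcsk1*, *Camk2d* and *Jup*.

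The lower genes, chosen after their values were seen, were those of the classical program. *Hopx* stood at 356, 254, 332 and 324 CPM, more than 10-fold below the 2968 to 3985 CPM of the classical class. *S100a8*, an alarmin subunit, stood at 14.3, 3.62, 3.59 and 32.4 CPM against 502 to 1388. The protease inhibitor *Slpi* stood at 11.2, 12.7, 20.3 and 21.3 CPM against 408 to 652. The lipopolysaccharide co-receptor *Cd14* stood at 3.59 to 10.9 CPM against 103 to 134. *Lyz2*, the lysozyme gene shared by all monocytes, was at 11809, 12653, 13263 and 13374 CPM against a classical level of 38750 to 45445. The inhibitory Fc receptor *Fcgr2b* had 1.20 to 3.95 CPM, whereas the activating receptor *Fcgr1a* had 318 to 357 and the shared signalling chain *Fcer1g* 4442 to 5609.

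Members differed widely in the gene that selected them. The median was 4, 4, 5 and 4 *Fcgr3a* UMIs and the highest member held 34, 30, 42 and 34. In Sham, 46 of 232 members had 1 *Fcgr3a* UMI and 53 had 10 or more; in SCI these numbers were 27 and 20 of 133, in MSC-i.t 30 and 55 of 186, and in MSC-i.v 93 and 59 of 407. Just outside the rule, 177, 64, 87 and 230 barcodes met every other condition with 0 *Fcgr3a* UMIs. They held *Spn* at 998 to 1629 CPM but also the platelet gene *Pf4* at 1135 to 3810 CPM, against 86.8 to 792 CPM in members with 1 *Fcgr3a* UMI. The 16 to 48 barcodes per library that failed only on *Csf1r* held the natural killer gene *Nkg7* at 2273 to 3517 CPM, and members with 1 *Csf1r* UMI at 0 to 663. The barcodes just outside the *Csf1r* condition were thus rich in *Nkg7*, and those just outside the *Fcgr3a* condition in *Spn* and *Pf4*.

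Genes that tracked *Fcgr3a* within the class were looked up by comparing members with 10 or more of its UMIs with members that had 1 to 3, a description of genes chosen after their values were seen. *Pla2g2d*, a secreted phospholipase, was at 264 against 43.5 CPM in Sham, 259 against 52.0 in SCI, 357 against 71.7 in MSC-i.t and 366 against 84.9 in MSC-i.v. The Ly49 receptor gene *Ly49si1* was at 463 against 252, 479 against 251, 613 against 309 and 800 against 280 CPM. In the other direction, *Pla2g7*, the platelet-activating factor hydrolase, was at 28.4 against 82.2, 0 against 95.3, 29.4 against 109 and 5.23 against 143 CPM. *Hopx* was at 130 against 501, 160 against 385, 164 against 552 and 94.1 against 426 CPM. The members with little *Fcgr3a* therefore sat nearer to the classical level of *Hopx* in each library, though still far below it.

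The comparison of shares asks how common these monocytes were in blood after injury and after cell therapy. They made up 2.55% (2.24 to 2.90) of the kept barcodes under the hemoglobin ceiling in Sham, 1.82% (1.53 to 2.15) in SCI, 1.86% (1.61 to 2.15) for MSC-i.t and 2.89% (2.62 to 3.18) for MSC-i.v. The intervals of SCI and MSC-i.t lie below those of Sham and MSC-i.v. Classical monocytes made up 4.39% (3.98 to 4.83), 1.34% (1.09 to 1.63), 1.60% (1.37 to 1.87) and 3.73% (3.43 to 4.06). Nonclassical cells were therefore 36.8% (33.0 to 40.7) of both monocyte classes in Sham, 57.6% (50.9 to 64.0) in SCI, 53.8% (48.3 to 59.1) for MSC-i.t and 43.6% (40.4 to 46.9) for MSC-i.v. With at least 2 UMIs each of *Csf1r* and *Fcgr3a* the shares were 1.95%, 1.38%, 1.50% and 1.97%, which put MSC-i.v level with Sham. With the rule applied to barcodes thinned to 2000 UMIs each, which sets all libraries to 1 depth, they were 2.50%, 1.56%, 1.66% and 2.95%, with MSC-i.v above Sham. A share of barcodes does not give cells per volume of blood.

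**Figure D2:**
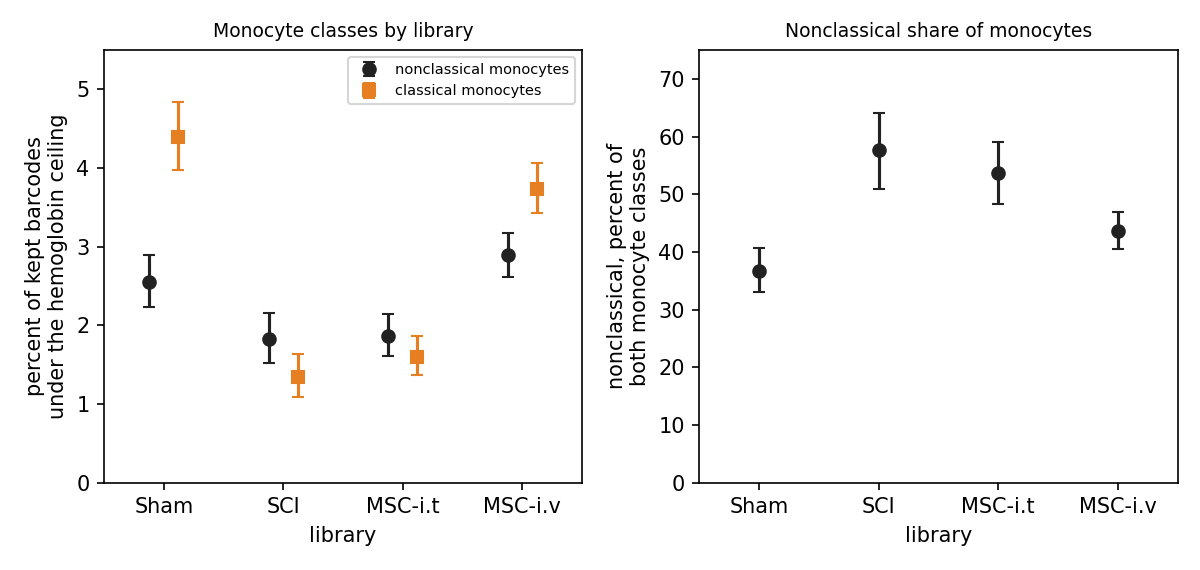
Left, percent of kept barcodes under the hemoglobin ceiling that were nonclassical (circles) or classical (squares) monocytes in each library; right, nonclassical cells as percent of both classes. Bars are exact Clopper-Pearson 95% intervals. The nonclassical share is lowest in SCI at 1.82%, while its part of both classes is highest there at 57.6%. Monocyte-like barcodes that meet neither rule are not counted in that part.

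SCI against Sham sets these cells after cord injury beside those of the sham group, and a possible difference in the stage of sampling cannot be told apart from injury or treatment in any comparison with SCI. In the SCI library the transcription factor gene *Cebpb* stood 18.1-fold above Sham. At least 2-fold higher were 3 of 15 early response genes and 3 of 29 type I interferon genes, and the platelet genes *Pf4*, *Nrgn*, *Pla2g2a* and *Clec1b* were at least 2-fold lower. Of 4591 genes with at least 20 UMIs in one of the libraries and outside the rule, called tested although no p-value is given, 223 (4.86%) were at least 2-fold higher and 95 (2.07%) at least 2-fold lower (6.93% in either direction), with a median log2 ratio of 0.06 over all of them. With a free RNA profile subtracted the numbers were 277 higher and 405 lower, so the balance of directions depends on that setting. With the 3 members richest in a gene left out for each gene, they were 161 and 146. A fixed 3 members are a larger part of a library with fewer members. This setting therefore tilts a split toward the library with more members, here Sham, and no balance of directions is read from it.

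*Cebpb*, a transcription factor gene needed for the survival of nonclassical monocytes in mice, differed most. It stood at 137 CPM (115 to 162) in Sham, 2471 (2341 to 2606) in SCI, 138 (114 to 165) for MSC-i.t and 128 (109 to 149) for MSC-i.v. At least 1 UMI was seen in 38.4%, 99.2%, 40.3% and 31.9% of members, and in 0.314%, 2.64%, 0.202% and 0.191% of T cells, whose median depths were 5126, 6031.5, 5710 and 3790 UMIs. SCI stood 18.1-fold (15.1 to 21.7) above Sham and the other 3 libraries lay within each other's intervals. The same pair gave log2 ratios of 4.17 in nonclassical monocytes, 4.65 in classical monocytes and 3.05 in T cells, and the free RNA held 114 CPM of *Cebpb* in SCI and 3.07 to 14.8 elsewhere.

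The next 4 genes of the ranking had the same shape. *Dapk3*, a kinase gene, stood at 8.17, 136, 4.78 and 5.52 CPM. *Snx20*, a sorting nexin that binds the selectin ligand PSGL-1, stood at 10.2, 165, 20.3 and 16.6 CPM. *Taf10*, a general transcription factor subunit, stood at 26.5, 274, 23.9 and 30.0 CPM, and *Purb*, a nucleic acid binding protein gene, at 22.5, 183, 26.3 and 31.6. In T cells of the same pair their log2 ratios were 4.36, 3.25, 3.53 and 3.55, and for *Taf10* hemoglobin-rich barcodes gave 3.23. These 5 differences were thus also present in T cells of the SCI library, and library and group cannot be told apart. *Tm9sf3* (14.3, 94.2, 10.8 and 18.1 CPM) and *Gnas* (23.5, 141, 23.9 and 22.1 CPM), named in the comparisons with the treated libraries, had that shape too.

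Of the identity and transcription factor list, 20 genes were tested in SCI over Sham, 4 were at least 2-fold higher and none lower, with a median log2 ratio of 0.23 (classical 0.59, T cells 0.01). Besides *Cebpb* these included *Hes1* and *Cebpd*. *Hes1*, a Notch target gene, stood at 8.17, 41.7, 15.5 and 11.8 CPM. *Cebpd*, an acute response factor, stood at 76.6, 158, 38.3 and 136 CPM, which put MSC-i.v close to SCI and MSC-i.t lowest; its SCI over Sham log2 ratio of 1.04 became 0.81 in members without *Pf4* and *Ppbp* UMIs. At the low end of the list, *Nr4a1*, *Irf5* and *Irf8* were not 2-fold apart, with log2 ratios of -0.37, -0.18 and -0.09.

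Some early response genes were higher in the same library. Of 15 tested genes of the immediate early list, 3 were at least 2-fold higher in SCI than in Sham and none lower (median log2 ratio 0.45, classical 0.79, T cells 0.24). *Jund*, an AP-1 subunit, stood at 58.2 CPM (44.1 to 75.4) in Sham, 241 (202 to 286) in SCI, 44.2 (31.1 to 61.0) for MSC-i.t and 52.9 (41.0 to 67.1) for MSC-i.v. *Dusp1*, a phosphatase that ends MAP kinase signalling, stood at 61.3, 179, 74.1 and 57.6 CPM, and *Btg1*, an antiproliferative gene, at 249, 600, 251 and 256. *Dusp1* was 2.93-fold (2.10 to 4.10) higher in SCI, with a log2 ratio of 1.55 beside 0.81 in classical monocytes and 0.02 in T cells, so T cells of the same library did not show it. *Jund* and *Btg1* had log2 ratios of 2.03 and 1.39 in T cells. Both *Nr4a1* and *Junb* lay below Sham in SCI, at 440 against 571 and 399 against 493 CPM.

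In the remaining lists few genes of the SCI and Sham members were 2-fold apart. The cytokine *Tgfb1* was the exception of the anti-inflammatory list (1 of 10). It stood at 95 CPM (76.6 to 116) in Sham, 281 (238 to 329) in SCI, 90.9 (71.6 to 114) for MSC-i.t and 150 (129 to 173) for MSC-i.v. Classical monocytes held it at 107, 298, 64.7 and 137 CPM. Of T cells thinned to 2000 UMIs, 8.04%, 14.1%, 5.43% and 8.10% had a *Tgfb1* UMI, so SCI was highest there too. *Dusp1* and *Cebpd* were also the 2 higher genes of 10 in the glucocorticoid-responsive list (median 0.58). Of 23 genes of the NF-kB list, *Nfkb2* was higher, at a log2 ratio of 1.05, and *Ccl5*, *Ccl3* and *Nfkbiz* were lower. *Nfkbiz* was no longer 2-fold apart on thinned barcodes, at a log2 ratio of -0.74. The chemokine *Ccl3* stood at 150, 70.6, 114 and 110 CPM, with a log2 ratio of -0.84 after free RNA subtraction. The cathepsin *Ctss* was 1 of 23 lysosomal genes higher (17.4, 45.3, 22.7 and 31.6 CPM) and the small GTPase *Rhoc* 1 of 19 adhesion genes lower (112, 56.2, 94.5 and 99.4 CPM). *Rhoc* lay at the threshold of 2-fold, with a log2 ratio of -0.77 after free RNA subtraction and 1.42 in classical monocytes. None of the tested genes of the Fc receptor and complement (9), cytokine receptor (13), MHC class I (14), survival (7), glycolysis (10) and lipid handling (8) lists was 2-fold apart. The 3 lower genes of 6 in the mitosis list, *Mki67*, *Top2a* and *Stmn1*, had 17 of 20, 21 of 23 and 34 of 47 of their Sham UMIs in 1 member. The classical MHC class I gene *RT1-A2* stood at 4563, 2744, 3711 and 2673 CPM, lowest in MSC-i.v and SCI, without passing 2-fold.

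**Figure D3:**
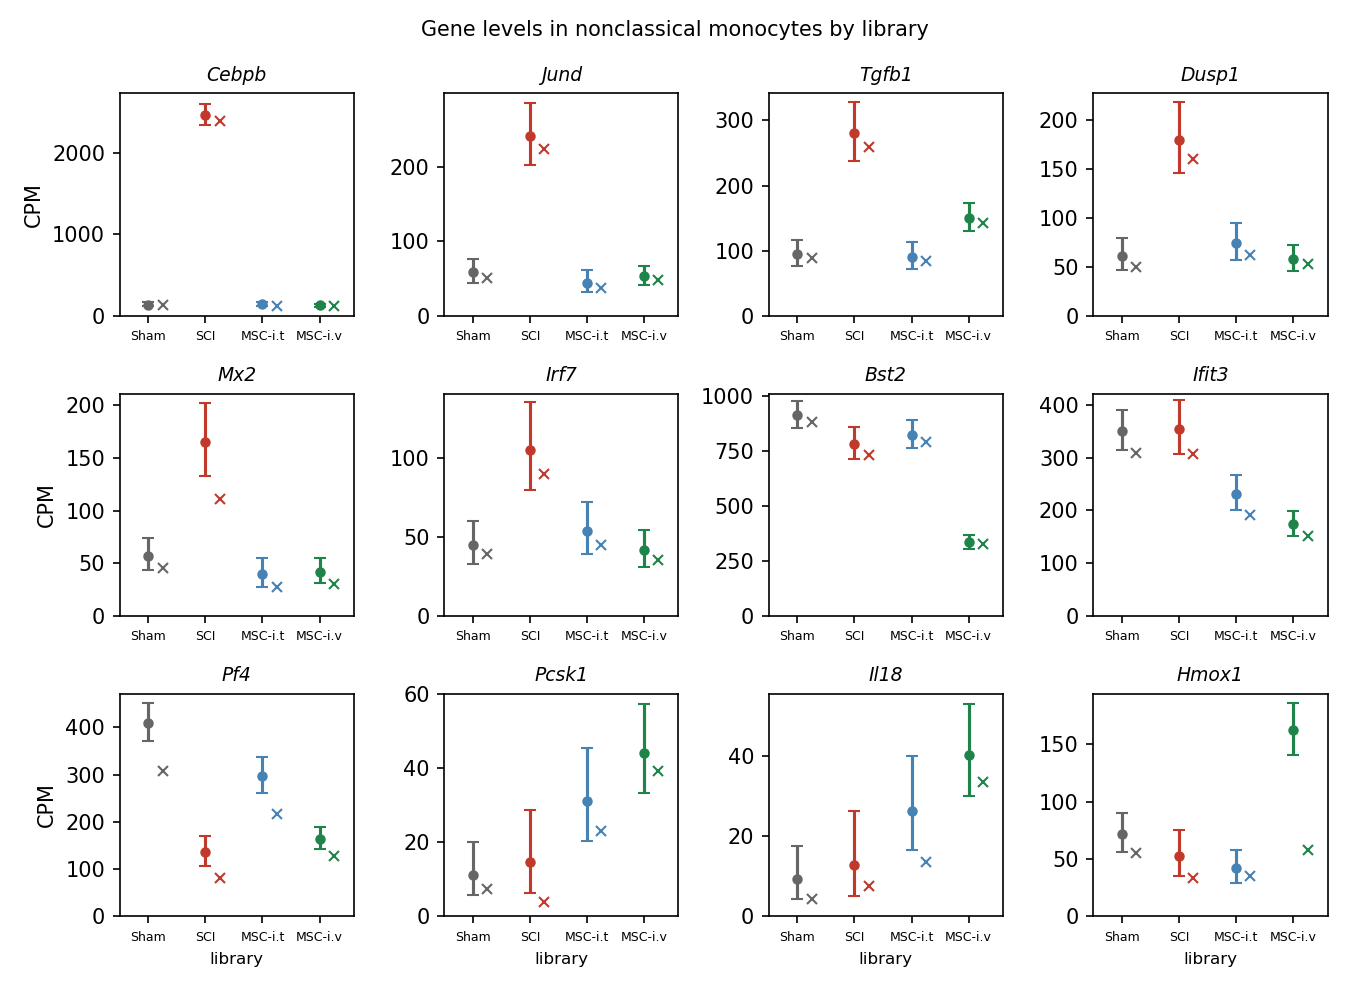
Levels in nonclassical monocytes of 12 genes in CPM by library. Circles with bars are the summed level with its exact Poisson 95% interval and crosses the level without the 3 members that hold most UMIs of that gene; *Cebpb* stands at 2471 CPM in SCI and 128 to 138 elsewhere, *Bst2* at 335 CPM in MSC-i.v and 783 to 914 elsewhere, and the *Hmox1* level of MSC-i.v is 58.2 CPM without 3 members.

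Platelet RNA differed between the libraries. *Pf4*, the platelet chemokine, was at 410 CPM (371 to 453) in Sham, 136 (107 to 170) in SCI, 298 (262 to 337) for MSC-i.t and 164 (143 to 188) for MSC-i.v, and 33.2%, 19.5%, 34.9% and 19.7% of members had a *Pf4* or *Ppbp* UMI. *Nrgn*, *Pla2g2a* and *Clec1b*, which rat or mouse platelets carry, were the other low genes in SCI, at 16.3, 23.5 and 25.4 CPM against 113, 136 and 96.0 in Sham. In T cells of the same pair *Pf4* had a log2 ratio of -1.65, and classical monocytes had 0.30, while the nonclassical level was 3.02-fold lower, a log2 ratio of -1.60. Fewer classical barcodes held a *Pf4* UMI in SCI than in Sham, 55.1% against 80.2% (42.3% against 66.4% after thinning). The nonclassical ratio fell short of 2-fold at -0.78 with the rule applied to thinned barcodes and at -0.86 with free RNA subtracted. *Pf4* in MSC-i.v over Sham likewise went from -1.32 to -0.96 on thinned barcodes. Among members without *Pf4* and *Ppbp* UMIs the log2 ratios of *Clec1b* and *Pla2g2a* were 0.27 and 0.12 and that of *Nrgn* was -0.21. *Ccl5*, a lymphocyte chemokine, stood at 113, 19.9, 336 and 98.6 CPM and rested on few barcodes: 1 member held 62 of 111 UMIs in Sham, and 1 held 262 of 281 in MSC-i.t. Its SCI over Sham log2 ratio was -0.86 among members with at most 1 natural killer cell UMI.

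Type I interferon response genes varied with the library in this class. The interferon response works through transcription factors such as IRF9, which bind repeats of GAAA in promoters and switch on antiviral effectors. Of 27 promoters of the list that could be matched in RefSeq (build GRCr8, the 250 bases before each gene's start), 17 or 63.0% held GAAA, any pair of bases and GAAA again, on either strand, against 1140 of 33469 promoters (3.41%). *Eif2ak2*, *Ifi27*, *Ifi44l*, *Ifitm3*, *Oas3*, *Oasl2*, *Parp14*, *Rsad2*, *Samd9* and *Xaf1* hold this motif but were 2-fold apart in no tested pair. *Mx2*, *Irf9*, *Isg15*, *Cmpk2*, *Stat2*, *Herc6*, *Trim25*, *Mx1*, *Dhx58* and *Usp18* were 2-fold apart in at least 1 pair and are not among the 17. For each of these, either the promoter searched held no motif or no promoter was matched. Which of the 2 applies is not given here, so absence of the motif is not shown. *Bst2*, *Ifit3*, *Irf7*, *Oas1a*, *Ifih1*, *Ifi44* and *Isg20* hold the motif and were 2-fold apart in at least 1 pair of libraries. Of these the first 3 are shown as examples, since their levels in all libraries are given below; capitals mark the motif or its reverse complement (TTTC, any pair of bases, TTTC), and in *Bst2* a pair of overlapping matches. A match in letters does not show binding. The windows lie at chr16:18254968-18255217 (minus strand), chr1:241527076-241527325 (plus strand) and chr1:205800024-205800273 (minus strand), each written from 5′ to 3′ toward the gene.
Bst2: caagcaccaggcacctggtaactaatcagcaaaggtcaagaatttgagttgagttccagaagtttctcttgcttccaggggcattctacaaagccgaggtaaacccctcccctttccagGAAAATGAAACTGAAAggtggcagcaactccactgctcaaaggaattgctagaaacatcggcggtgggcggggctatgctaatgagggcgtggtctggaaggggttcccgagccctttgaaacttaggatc
Ifit3: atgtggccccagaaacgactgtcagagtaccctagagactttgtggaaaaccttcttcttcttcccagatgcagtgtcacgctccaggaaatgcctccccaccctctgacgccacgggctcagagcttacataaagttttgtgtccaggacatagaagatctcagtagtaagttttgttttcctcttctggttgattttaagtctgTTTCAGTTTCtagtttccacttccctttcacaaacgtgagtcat
Irf7: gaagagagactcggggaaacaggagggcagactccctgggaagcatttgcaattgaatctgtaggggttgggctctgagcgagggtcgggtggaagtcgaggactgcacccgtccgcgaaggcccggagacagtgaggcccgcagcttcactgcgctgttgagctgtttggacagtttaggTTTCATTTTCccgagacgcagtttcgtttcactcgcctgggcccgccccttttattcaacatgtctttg

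In SCI over Sham, 29 genes of this list were tested. The effector *Mx2* and the factors *Irf7* and *Irf9* were at least 2-fold higher and none was lower, with a median log2 ratio of 0.43 beside 0.06 over all genes, 0.62 in classical monocytes and -0.03 in T cells. *Mx2*, a GTPase that blocks viruses, stood at 57.2 CPM (43.2 to 74.3) in Sham, 165 (133 to 202) in SCI, 39.5 (27.2 to 55.4) for MSC-i.t and 41.8 (31.3 to 54.7) for MSC-i.v. *Irf7*, the amplifier of the response, stood at 44.9 (32.6 to 60.3), 105 (79.8 to 136), 53.8 (39.2 to 72.0) and 41.8 (31.3 to 54.7) CPM. For both genes the SCI interval lay above those of the other 3 libraries. *Isg15*, a ubiquitin-like modifier, followed at 122, 199, 92.1 and 90.0 CPM. Some members of the list lay below Sham, among them *Bst2*, *Ifi35*, *Rtp4* and *Ifi27* with log2 ratios of -0.22, -0.30, -0.30 and -0.43.

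The median of this list lay below SCI in both treated libraries. MSC-i.t over SCI gave 8 genes at least 2-fold lower of 29 (*Mx2*, *Ifih1*, *Herc6*, *Isg15*, *Stat2*, *Cmpk2*, *Oas1a* and *Trim25*) and none higher, with a median log2 ratio of -0.62. Over all 4261 genes of that pair 287 (6.74%) were lower and 78 (1.83%) higher (8.57% in either direction), with a median of -0.09. MSC-i.v over SCI gave 11 of 30 lower (*Mx2*, *Cmpk2*, *Irf7*, *Bst2*, *Mx1*, *Dhx58*, *Isg15*, *Herc6*, *Usp18*, *Ifit3* and *Ifi44*) and none higher, with a median of -0.79. Over all 5019 genes of that pair 226 (4.5%) were lower and 93 (1.85%) higher (6.36% in either direction), with a median of -0.10. Centred on that median, 178 were lower and 120 higher, and with free RNA subtracted 338 and 521. Without 3 members per gene these numbers were 147 and 214, a split tilted toward MSC-i.v, the library with more members. For MSC-i.t over SCI free RNA subtraction gave 301 lower and 360 higher. Both pairs share the SCI library. Classical monocytes gave list medians of -0.72 and -0.64, T cells -0.15 and 0.26. Against Sham the list medians of the nonclassical members were -0.24 in MSC-i.t, with no gene 2-fold apart, and -0.41 in MSC-i.v, with *Bst2* and *Ifit3* lower and *Isg20* higher.

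*Bst2*, which encodes the antiviral surface protein tetherin, set MSC-i.v apart. It stood at 914 CPM (855 to 976) in Sham, 783 (710 to 860) in SCI, 824 (763 to 888) for MSC-i.t and 335 (303 to 368) for MSC-i.v. The level in MSC-i.v was 2.73-fold lower than in Sham, and its interval lay far under the other 3. The difference was spread over members: after thinning to 2000 UMIs, 77.4% (71.4 to 82.7), 78.4% (70.2 to 85.3), 76.2% (69.4 to 82.2) and 47.1% (41.9 to 52.3) had a *Bst2* UMI (92.7%, 94%, 91.4% and 58.0% before thinning, and 25.2%, 21.1%, 24.3% and 15.3% of T cells). For MSC-i.v over Sham the log2 ratio was -1.45, beside -0.83 in classical monocytes and -0.62 in T cells. *Ifit3*, an inhibitor of viral translation, stood at 351, 355, 232 and 174 CPM.

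Per barcode the list gave medians of 8 UMIs in Sham, 9 in SCI, 7 for MSC-i.t and 5 for MSC-i.v out of 2000, with middle ranges of 5 to 13, 6 to 13, 4 to 11 and 3 to 8. Classical monocytes gave 4, 5, 4 and 3. The nonclassical barcodes thus held more of these RNAs than the classical ones in each library, and their distributions overlapped between libraries. In SCI the highest member held 71 and the 3 highest held 10.4% of the list's UMIs. Without the 3 members richest in it, *Mx2* stood at 111 CPM in SCI and 45.55 in Sham.

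**Figure D4:**
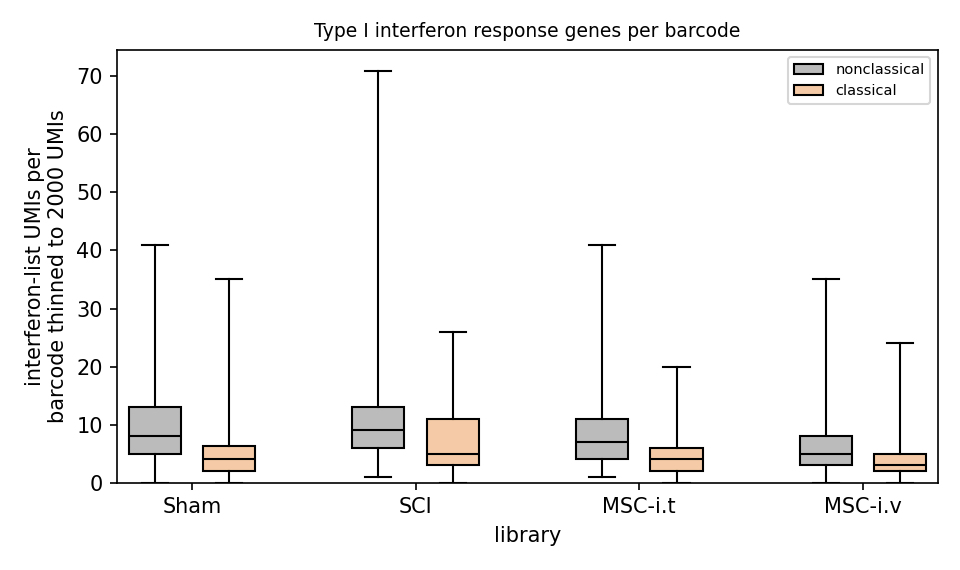
UMIs of the type I interferon response list per barcode after thinning each barcode with at least 2000 UMIs to 2000, for nonclassical (grey) and classical (orange) monocytes by library. Boxes span the quartiles with the median as a line, and whiskers reach the lowest and highest barcode; the nonclassical medians are 8, 9, 7 and 5.

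Genes of the MHC class II list were sparse per barcode in both monocyte classes. Class II molecules present antigen to CD4 T cells. The list also holds the regulator *Ciita* and the costimulatory genes *Cd80*, *Cd86* and *Cd40*, and its summaries include them. After thinning, the median was 1 UMI of the list per nonclassical barcode in every library, and 0, 0, 0 and 1 per classical barcode. No UMI of the list was seen in 42.0%, 43.2%, 48.6% and 41.7% of nonclassical barcodes and in 51.5%, 50.5%, 58.6% and 49.3% of classical ones. The summed levels below ran the other way, apart from *Cd74* in SCI, and the 3 highest classical barcodes held 14.0%, 35.6%, 34.0% and 11.7% of the list's classical UMIs, so no order of the classes is read from them. The invariant chain *Cd74* stood at 603 CPM in Sham, 558 in SCI, 682 for MSC-i.t and 386 for MSC-i.v, against 1274, 546, 826 and 1271 in classical monocytes and 395 to 719 in free RNA. *RT1-Da*, a class II alpha chain, stood at 68.4, 41.7, 187 and 64.7 CPM, against 790, 119, 364 and 822 in classical monocytes. In SCI over Sham none of 6 tested genes was 2-fold apart and the list median was -0.24, beside -0.71 in classical monocytes; the difference between the classes was not tested. In MSC-i.t over SCI, 4 of 8 (*RT1-Bb*, *RT1-Da*, *RT1-Db1* and *RT1-Ba*) were higher and *Cd80* was lower, but 1 barcode held 105 of the 156 *RT1-Da* UMIs, and for *RT1-Db1* the top barcode held 36 of 70. Without the top member of each gene the list median was 0.11 rather than 0.77.

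MSC-i.t against Sham and MSC-i.v against Sham set each treated library beside the sham library. They do not show a return from an injured state. Few genes were 2-fold apart: 35 higher (0.755%) and 80 lower (1.73%) of 4635 (2.48% in either direction) in MSC-i.t, and 60 higher (1.18%) and 65 lower (1.27%) of 5106 (2.45%) in MSC-i.v. Without the 3 members richest in each gene the splits were 10 higher and 90 lower, and 94 and 47. That setting tilts them toward the library with more members, Sham in the first and MSC-i.v in the second. With free RNA subtracted the second split was 138 and 95. In MSC-i.t the named lower genes were *Cops6* (64.3, 96.0, 21.5 and 60.8 CPM), *Net1*, *Ganab*, *Strn4* and the histone methyltransferase *Nsd3* (85.8, 167, 37.1 and 100.2 CPM). The mechanosensitive channel *Piezo1* (32.7, 68.8, 71.7 and 48.9 CPM) and the splicing factor *Srsf7* (38.8, 45.3, 80.1 and 55.2 CPM) were higher. *Piezo1* was about as high in SCI as in MSC-i.t. Several of these calls were lost under other settings: *Net1* (-0.77) and *Ganab* (-0.86) on thinned barcodes, *Strn4* (-0.75) without *Pf4* and *Ppbp*, and *Piezo1* (0.95) and *Srsf7* (0.97) with 2 UMIs of both rule genes, all as log2 ratios. *RT1-Da*, *RT1-Db1* and *Ccl5*, also higher there, have the single-barcode counts given above.

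In MSC-i.v the prohormone convertase gene *Pcsk1* was higher. It stood at 11.2 CPM (5.61 to 20.1) in Sham, 14.5 (6.26 to 28.6) in SCI, 31.1 (20.3 to 45.5) for MSC-i.t and 44.2 (33.4 to 57.4) for MSC-i.v, 3.93-fold (2.04 to 8.33) above Sham. A UMI was seen in 11.8% of MSC-i.v members and 4.31% of Sham members, and in 0.0238% and 0.0370% of T cells. *Il18*, an inflammasome cytokine chosen after its values were seen, stood at 9.19 (4.20 to 17.4), 12.7 (5.10 to 26.1), 26.3 (16.5 to 39.8) and 40.2 (30.0 to 52.9) CPM, 4.38-fold (2.14 to 10.1) above Sham in MSC-i.v, beside a log2 ratio of 0.51 in classical monocytes. For both genes the treated libraries were the upper 2 by CPM, and the MSC-i.t interval overlapped that of SCI. After thinning to 2000 UMIs, 1.77%, 4.00% (1.31 to 9.09), 3.31% and 6.15% (3.94 to 9.08) of members had an *Il18* UMI. By that measure SCI lay above MSC-i.t, and its interval overlapped that of MSC-i.v. *Edil3*, *Stk26* and *Sdhaf2* were 2.24-, 2.16- and 2.14-fold higher, and the sugar transporter *Slc2a6* was 2.31-fold lower; the log2 ratio of *Sdhaf2* was 0.65 on thinned barcodes and that of *Stk26* 0.99 with 0 classical UMIs. Over SCI, the higher genes of MSC-i.v included the splicing factor *Hnrnph3* (51.1, 25.4, 51.4 and 64.7 CPM) and the chromatin gene *Gatad2b* (40.8, 16.3, 41.8 and 40.2 CPM), both lowest in SCI, with a log2 ratio of 0.92 for *Hnrnph3* on thinned barcodes.

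*Hmox1*, the heme-degrading enzyme, stood at 71.5, 52.5, 41.8 and 163 CPM, so MSC-i.v was highest. Its UMIs there were concentrated, with 133 of 206 in 3 of 407 members and 73 in 1 of them. Without those 3 the level was 58.2 CPM, against 55.1 in Sham treated alike, and with at least 2 UMIs each of *Csf1r* and *Fcgr3a* the log2 ratio over Sham was -0.72. *S100a9* likewise had 64 of its 73 UMIs in 1 MSC-i.v member.

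The routes were set against each other in MSC-i.v over MSC-i.t, at doses that differ, so the values stand side by side. Of 5020 genes 99 were higher (1.97%) and 44 lower (0.876%), or 2.85% in either direction. Without the 3 members richest in each gene 186 were higher and 14 lower, a split tilted toward MSC-i.v, the library with more members. *Cebpd* was 3.55-fold (2.42 to 5.35) higher in MSC-i.v, with log2 ratios of 1.83 in nonclassical monocytes, 1.43 in classical monocytes and 2.40 in T cells. *Bloc1s4*, a subunit of a lysosome biogenesis complex, stood at 58.2, 65.2, 27.5 and 82.1 CPM, and *Nsd3* and *Cops6* were also lowest in MSC-i.t. *Bst2* was 2.46-fold lower in MSC-i.v, and *Ociad1*, an endosomal protein gene, stood at 74.5, 74.3, 98.0 and 45.0 CPM, with a log2 ratio of -0.77 on thinned barcodes. The glucocorticoid target *Fkbp5*, also chosen after its values were seen, stood at 9.19, 5.43, 7.17 and 21.3 CPM, which gave 2.97-fold with a wide interval of 1.20 to 8.80.

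**Figure D5:**
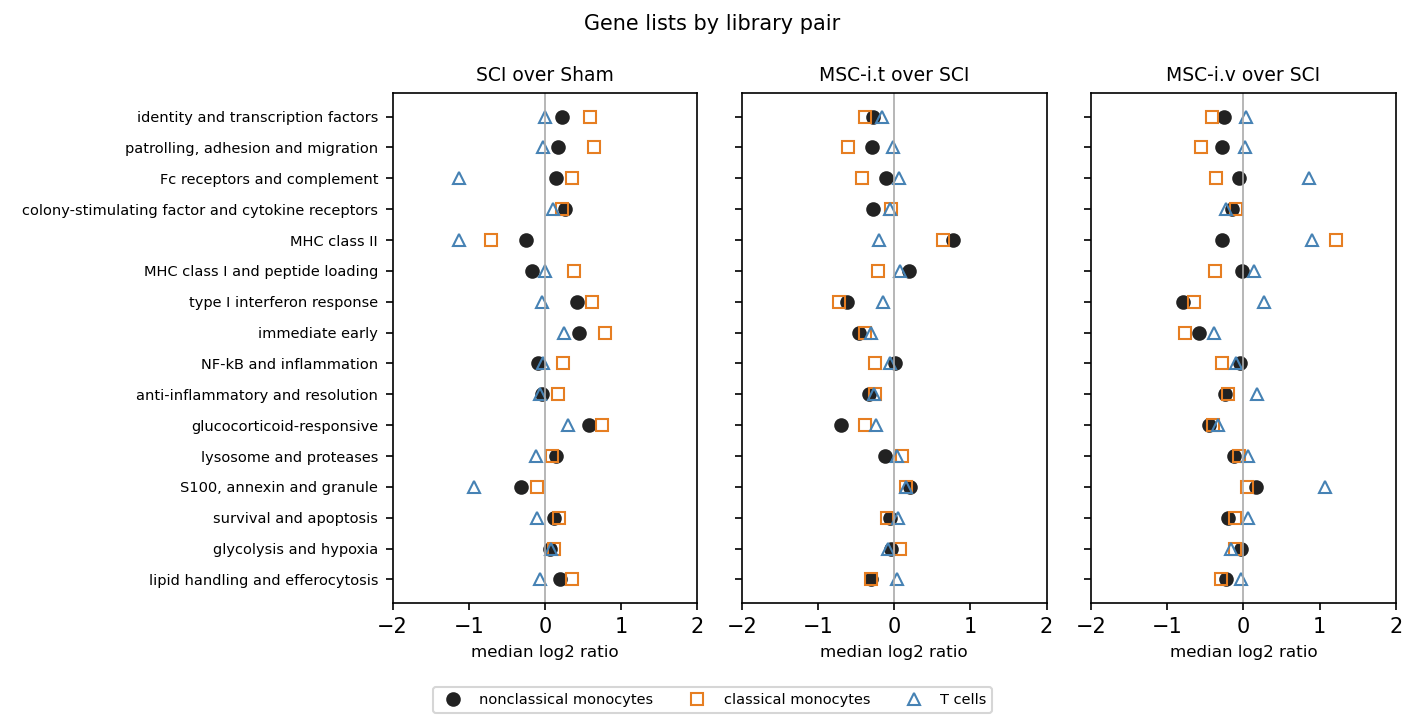
Median log2 ratio of each gene list with at least 6 tested genes in each of 3 library pairs, for nonclassical monocytes (filled circles), classical monocytes (squares) and T cells (triangles). The interferon list of the nonclassical members stands at 0.43, -0.62 and -0.79, and the class II value of 0.77 in MSC-i.t over SCI is 0.11 without the top member of each gene.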

How the data were processed

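The deposited matrices of rat blood droplets hold a UMI count for each gene in each barcode; Cell Ranger 4 wrote them, per the file headers, with 25340 genes and 6794880 barcodes per library, so no barcodes had been removed. The genome build was mRatBN7.2 per the submitters' processing notes; aligner settings are not given in the sources used here, and the labels' extraction protocol describes a bulk preparation that these matrices do not match. Library totals ran from 63133881 to 91124523 UMIs. The members, gene lists and marker lists were chosen with earlier results of these data known. Counts were summed over members per library and scaled to CPM with exact Poisson intervals; ratios have exact conditional binomial intervals, a floor of 3 counts stands in for 0, and shares have Clopper-Pearson intervals. A gene was tested for a pair with at least 20 UMIs in one library. No doublets were removed; Scrublet scores (scanpy 1.11.5) served as an alternative that leaves out the top 6%, which held 3.19% to 6.77% of members. Rows of the same symbol (268) were summed, and 369 of 380 list genes were found, 1 through a RefSeq synonym. A RefSeq table gives *Fcgr3a* also as a synonym of *Fcgr2a*, so reads of those receptors may be named differently elsewhere.

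Named genes were drawn from, for each of 6 pairs, the extreme 5 in each direction by ratio, given 50 UMIs or more in either library and detection in 10% of that library's members or more; unnamed loci were left out, as were mitochondrial, ribosomal, hemoglobin, immunoglobulin, T cell receptor and sex-linked genes and those of the rule; the 3 highest and 3 lowest of each list in SCI over Sham; and the 20 leading genes beside classical monocytes. Others are said to have been chosen after their values were seen or are counted members of a list. Some genes of the lists are counted but not reported here by name. Depth, free RNA (barcodes with 10 to 100 UMIs), doublets, thresholds and scaling were varied. The ratio step was run on simulated Poisson counts drawn from the pooled SCI and Sham profile. These counts share the intervals' own assumption. They leave out UMIs concentrated in few members, so they check the arithmetic only. Analysis used Python 3.11.15, numpy 2.4.6, scipy 1.17.1 and pandas 2.3.3.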

Additional observations from a re-analysis of the deposited data

Results flagged for a closer look

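In 5 of the genes with 50 or more UMIs in one library of the pair in both classes, the nonclassical and the classical monocytes lay at least 2-fold apart in opposite directions, and a difference of that kind was not tested. *Nfkbiz*, an NF-kB regulator, had a log2 ratio of -1.05 in SCI over Sham in nonclassical monocytes and 1.14 in classical monocytes; its nonclassical level rests on 15 UMIs in SCI, and the nonclassical ratio was -0.74 with the rule applied to thinned barcodes. *RT1-Da* had 1.45 against -1.12 in MSC-i.t over Sham and -1.53 against 1.18 in MSC-i.v over MSC-i.t, and *RT1-Db1* had 1.04 against -1.06 in MSC-i.t over Sham. *Tmem176a* had 3.09 against -1.03 in MSC-i.t over Sham, with 36 of its 51 MSC-i.t UMIs in 3 members. *S100a9* had 1.82 against -1.64 in MSC-i.v over Sham and 4.01 against -1.69 in MSC-i.v over MSC-i.t, with 64 of 73 UMIs in 1 member and 0 UMIs in MSC-i.t, so the last ratio is a bound at the floor of 3 counts. *Rhoc* also had opposite directions in SCI over Sham, 112 and 56.2 CPM in nonclassical Sham and SCI against 14.1 and 37.8 in classical monocytes, but only 49 and 29 classical UMIs in Sham and SCI.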

How the results depend on the processing

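No paired analysis was possible because each group has 1 library. The nonclassical share was 1.95%, 1.38%, 1.50% and 1.97% with at least 2 UMIs each of *Csf1r* and *Fcgr3a*, 2.003%, 1.51%, 1.52% and 2.25% with 0 UMIs of *Fcnb*, *Fn1* and *Vcan*, 36.8%, 57.6%, 53.8% and 43.6% over both monocyte classes, and 3.29% in MSC-i.v with at most 3 UMIs of those genes; 23 other share results moved by less than their interval. Genes 2-fold apart, in the order SCI over Sham, MSC-i.t over SCI, MSC-i.v over SCI, MSC-i.t over Sham, MSC-i.v over Sham and MSC-i.v over MSC-i.t, numbered 318, 365, 319, 115, 125 and 143; at a minimum of 5 UMIs 1155, 1239, 1102, 779, 807 and 741, at a minimum of 50 UMIs 97, 127, 101, 21, 25 and 31, and with free RNA subtracted 682, 661, 859, 223, 233 and 276. That subtraction, scaled on hemoglobin, took 30.1%, 38.6%, 33.7% and 26.7% of member UMIs, and why it moves the counts was not tested. The interferon list median was 0.21 in SCI over Sham at 50 UMIs and -1.03 in MSC-i.v over SCI with free RNA subtracted, and kept its sign in SCI over Sham, MSC-i.t over SCI and MSC-i.v over SCI under all alternatives run. The MHC class II median did not. For SCI over Sham it was 0.46 on thinned barcodes, 0.50 with free RNA subtracted and -0.0165 without the top 3 members of each gene, an alternative chosen after seeing the data as was leaving out 1. For MSC-i.t over SCI it was -0.24 with 2 UMIs of both rule genes, -0.0165 on thinned barcodes, 0.24 as a mean over cells, 1.66 without *Pf4* and *Ppbp*, -0.20 without the top doublet scores, -0.33 with free RNA subtracted, 0.11 and 0.15 without the top 1 and 3 members, and 1.94 at 50 UMIs. For MSC-i.v over SCI it was 0.10 with 0 classical UMIs, -0.61 thinned, -0.0418 as a mean over cells, 0.0159 without *Pf4* and *Ppbp*, -0.94 with free RNA subtracted, 0.0799 and 0.38 without the top 1 and 3 members, and 0.29 at 50 UMIs. Reversed log2 ratios fell on a few genes. Without *Pf4* and *Ppbp*, *Clec1b* was 0.27 and *Pla2g2a* 0.12 in SCI over Sham, *Pla2g2a* -0.0264 in MSC-i.v over SCI, *Nrgn* 0.0666 and *Pla2g2a* 0.0889 in MSC-i.v over Sham, and *Ccl5* -1.90 in MSC-i.t over Sham. *Ccl5* in that pair was -2.77 with 2 UMIs of both rule genes, -2.34 thinned, -0.67 with at most 1 natural killer UMI, and -1.14 and -0.91 without the top 1 and 3 members. *RT1-Da* was -0.59 and -0.00229 in MSC-i.t over SCI with 2 UMIs of both rule genes and without the top doublet scores, -1.18 and -0.24 in MSC-i.t over Sham, 0.95 and 0.59 in MSC-i.v over MSC-i.t, and -0.20 and 0.70 in the last pairs without the top 3 members. *RT1-Db1* was -0.18 and -0.0117 in MSC-i.t over Sham and 0.00857 in MSC-i.v over MSC-i.t. *Hmox1* was -0.0552 over SCI and -0.72 over Sham in MSC-i.v with 2 UMIs of both rule genes. The cause was not tested, except that leaving out *Pf4* and *Ppbp* barcodes removes platelet RNA by construction. Depth limits genes under 20 UMIs, and the width of a ratio's interval follows mainly from the library with fewer UMIs of the gene. Leaving out the top 1 or 3 members of each gene takes a larger part of a library with fewer members.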
